A study of Mus musculus with 16 samples.

Results

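Of 11680 mouse genes with an Ensembl identifier and a mean level of at least 1 CPM over 16 livers, 125 (1.07%) had a higher level in each of 8 livers of emodin-dosed mice than in any of 8 livers of mice given the carrier alone. In the opposite direction, 138 genes (1.18%) were lower in each emodin liver than in any vehicle liver. CPM is the gene's estimated count per 1000000 counts of its library. The rule that defines the gene set sets aside Scara5, Prtn3, Bcl3, Nags and Ldha. The first 4 of these met the comparison and Ldha did not, its lowest emodin liver standing at 0.982 times its highest vehicle liver. That left 121 genes of the 27446 entries of the deposited table, and all 121 enter the counts given here. They were chosen by the emodin against vehicle contrast itself, so their separation and their folds (mean of the emodin livers over mean of the vehicle livers, in CPM) are a description and carry no test.

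The mice were wild-type C57BL/6 and the labels name no other allele. The emodin group was dosed intragastrically for 3 weeks with emodin, a plant anthraquinone known from rhubarb, at 400 mg/kg in a 0.5% CMC-Na solution (sodium carboxymethyl cellulose). The vehicle group received that carrier alone, and both groups had 7 days of acclimation. The series title places the experiment in emodin liver toxicity, with cytochrome P450 enzymes and NF-κB/NLRP3 signalling as its subject. The labels used here give neither sex nor age, and do not say that each library came from its own mouse, so a p-value measures the spread between libraries, which may be technical in part.

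A gene that is higher in every treated animal differs from a gene whose group mean is higher. A few extreme animals can move a mean, while a complete separation needs the weakest responder to clear the strongest control. In the liver, the best-known genes that react to injury and inflammation are those of the acute phase, by which hepatocytes secrete haptoglobin, serum amyloid A and protease inhibitors under the control of interleukin-6, interleukin-1 and STAT3. Metallothioneins, small cysteine-rich proteins that bind zinc and copper, are known to react to metals, glucocorticoids and cytokines. Both kinds of gene are in the set, among its 8 plasma proteins and 3 metal-handling genes. The roles used here were assigned by hand to the members alone, among them transcription and chromatin (25 members) and membrane traffic and lysosome (24 members). How many of the 11680 genes have each role was not counted, so the size of a group is no result.

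Library totals ran from 28.3 M to 48.2 M (M, mega) in estimated counts. Vehicle libraries averaged 32.3 ± 3.16 M and emodin libraries 38.6 ± 6.91 M (mean ± SD over 8 livers). The livers carried their defining transcripts: 10 hepatocyte markers summed to 108824 to 130680 CPM in vehicle livers and 71108 to 109352 CPM in emodin livers, 7 of which lay below every vehicle liver. Most of this sum is albumin: Alb averaged 83410 ± 8199 CPM in vehicle and 59530 ± 10710 CPM in emodin livers (mean ± SD, n = 8). The rest of the list did not move as one, since Ttr averaged 5118 and 4395 CPM, Cps1 3246 and 3285 CPM, Asgr1 352 and 363 CPM and Hnf4a 452.5 and 592 CPM in vehicle and emodin livers. The summed levels of 12 Kupffer cell and macrophage markers ran from 169 to 766 CPM in vehicle and from 263 to 704 CPM in emodin livers, with 0 of the 12 above or below in all. The 12 neutrophil markers summed to 1.18 to 6.24 and 2.41 to 9.61 CPM, and the 6 cholangiocyte markers to 35.9 to 68.0 and 32.9 to 196 CPM. Lists for T and NK cells, B and plasma cells, sinusoidal endothelial cells, stellate cells, erythroid cells, platelets and pancreatic acinar cells also overlapped between the groups, and only Prss2 of the acinar list was at 0 in all 16 livers. In the sums of these lists, 0 emodin livers lay above every vehicle liver. Some lay below: 5 for acinar cells, 3 for platelets and 2 each for B and plasma, endothelial and stellate cells. For T and NK cells and for erythroid cells it was 1 each. Of all these markers 0 were above and 0 below in every emodin liver, and 0 are members of the gene set. The shares over 11680 genes were only 1.07% above and 1.18% below, and many markers had means below 1 CPM, so nothing is read from these counts. Prtn3, which met the comparison and is set aside by name, is in none of these lists. Their part in the members' levels was not tested. In bulk tissue, fewer cells of a type and less RNA per cell cannot be told apart.

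The separation was narrow for most members and wide for a few. The ratio of the lowest emodin liver to the highest vehicle liver had a median of 1.06 and ran from 1.00 to 2.14, against a median of 0.649 for all 11680 genes. It was at least 1.1 in 38 members, at least 1.2 in 17, at least 1.5 in 3 and at least 2 in 1. The fold had a median of 1.60 and a range of 1.12 to 14.6, beside a median of 1.04 for all genes. Of the 121 members, 48 were under 1.5-fold, 45 between 1.5-fold and 2-fold, and 28 at 2-fold or more, 13 of which reached 3-fold. In the edgeR quasi-likelihood fit over 14308 entries, where 7.7% were called higher and 5.47% lower at an adjusted p under 0.05, 114 members were called higher. The 7 that were not called, among them Tcf25, Smpd1, Pcsk7, Stk19, Cdip1 and Zmiz1, have ratios of at most 1.03. Since the rule and the fit used the same livers, nothing is read from that count.

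E030018B13Rik, a gene of unknown function, had the widest separation in the set (ENSMUSG00000095061, mm10 chr7:63916857-63920539, plus strand). Its level was 0.102, 0.181 and 0.523 CPM in vehicle livers (lowest, median and highest, the order used for every group below) and 1.12, 2.86 and 3.99 CPM in emodin livers, a fold of 11.8. Even its lowest emodin liver was 2.14 times its highest vehicle liver, but it also has the lowest mean level of all members, 1.48 CPM. Its span lies inside that of Klf13 (mean 59.3 CPM, fold 1.01), and the use of strand in counting is not given. The part of Klf13 reads in its level was not tested. Fndc3b encodes a fibronectin type III domain protein of the endoplasmic reticulum membrane (ENSMUSG00000039286, mm10 chr3:27416162-27711307, minus strand). It stood at 14.7, 17.1 and 19.2 CPM in vehicle livers and at 36.4, 40.0, 33.0, 78.1, 31.1, 40.9, 33.3 and 72.1 CPM in emodin livers 1 to 8. Emodin livers 4 and 8 were the highest by a wide margin, and the lowest, emodin 5, still lay at 1.62 times the highest vehicle liver. The fold was 2.71.

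Tmem41a encodes a multispanning membrane protein related to the endoplasmic reticulum lipid scramblase TMEM41B (ENSMUSG00000022856, mm10 chr16:21934326-21947552, minus strand). It measured 3.60, 4.83 and 5.34 CPM in vehicle livers and 7.10, 9.60 and 11.8 CPM in emodin livers. Vehicle liver 7 was the lowest, and the emodin livers lay above all vehicle livers (1.93-fold) and spread over a ratio of 1.67. Crybg1, also known as absent in melanoma 1, encodes a large protein with beta/gamma-crystallin domains (ENSMUSG00000019866, mm10 chr10:43950636-44148853, minus strand). It measured 19.03, 21.7 and 26.2 CPM in vehicle livers and 31.9, 41.2 and 54.5 CPM in emodin livers. All emodin livers lay above the vehicle range, at 1.92-fold on average, and they spread over a ratio of 1.71.

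**Figure D1:**
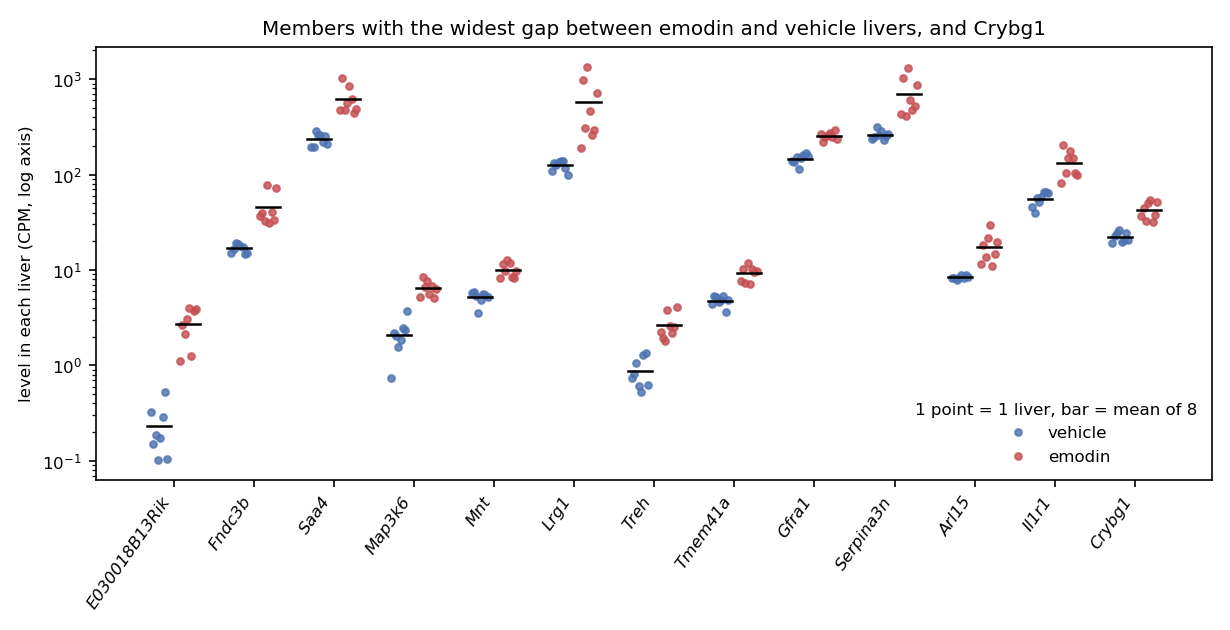
Level in each liver, in CPM on a log axis, of the 12 members with the widest separation and of Crybg1; each point is 1 liver (blue, 8 vehicle; red, 8 emodin) and each bar the mean of 8. No red point reaches down to a blue point of the same gene, and Lrg1 and Serpina3n spread more among the emodin livers than Gfra1 or Map3k6.

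The closest relatives of these genes showed no such separation in the same libraries. Only 1.07% of the 11680 genes showed it, so its absence in a few relatives is the common case. Fndc3a, the paralog of Fndc3b, had 78.7 ± 14.4 CPM in vehicle and 71.1 ± 8.53 CPM in emodin livers (mean ± SD, n = 8), a log2 fold change of -0.19 ± 0.11 (SE, edgeR adjusted p = 0.245). Tmem41b had 28.6 ± 3.02 and 26.5 ± 4.71 CPM (log2 fold change -0.15 ± 0.08, edgeR adjusted p = 0.222), and Vmp1, which encodes a further scramblase of that domain family, 102.5 ± 8.43 and 125 ± 33.6 CPM (0.25 ± 0.12, edgeR adjusted p = 0.176). Crybg3 and Crybg2 had log2 fold changes of 0.07 ± 0.12 and 0.14 ± 0.27 (edgeR adjusted p = 0.717 and 0.764). Of 9 tested genes on a list of these relatives, the 3 called are the members themselves, which the rule chose, and 0 of the 6 others were called in either direction. Among all tested entries 7.7% were called higher and 5.47% lower. A count of 0 of 6 is near those shares, and nothing is read from it. At an unadjusted p under 0.05, 0 of the 6 passed in the edgeR fit, and DESeq2 called 0 of them. The difference between each member and its relative was not tested.

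**Figure D2:**
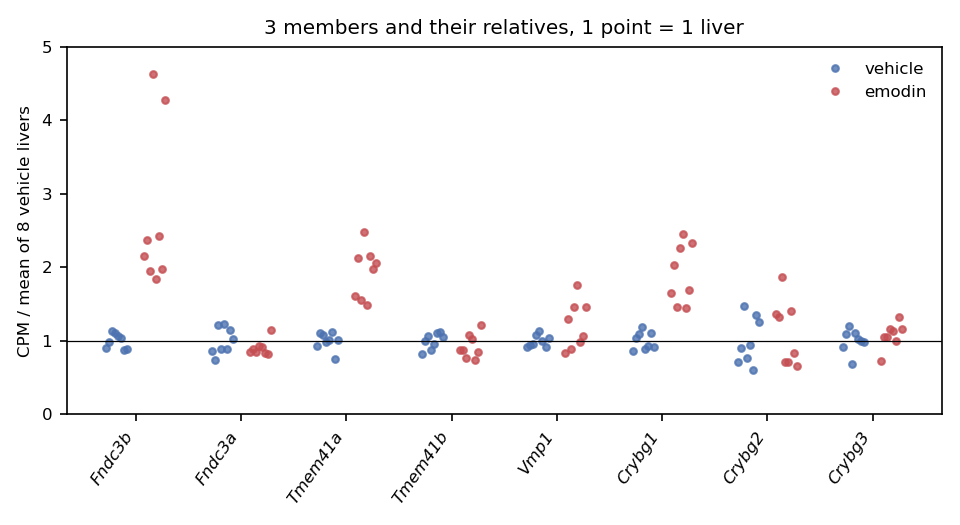
Level of Fndc3b, Tmem41a and Crybg1 and of 5 relatives in each liver, as a ratio to the mean of the 8 vehicle livers (linear axis; blue, vehicle; red, emodin; 1 point is 1 liver). The red points of the 3 members all lie above 1 and above their blue points, while the red and blue points of Fndc3a, Tmem41b, Vmp1, Crybg2 and Crybg3 overlap.

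The 250 bases before the Fndc3b start are shown because this is the best separated member of known function (RefSeq promoter windows, GRCm38.p6, chr3:27710453-27710702, minus strand, written 5′ to 3′). The capitals mark CACGT, the reverse complement of ACGTG, the core recognised by hypoxia-inducible factors among others, which begins 60 bases before the start:
Fndc3b promoter: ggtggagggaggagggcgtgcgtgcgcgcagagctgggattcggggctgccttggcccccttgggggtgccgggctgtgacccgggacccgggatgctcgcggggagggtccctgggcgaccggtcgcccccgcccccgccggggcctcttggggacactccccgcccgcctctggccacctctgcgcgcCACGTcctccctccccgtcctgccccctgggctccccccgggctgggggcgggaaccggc
This stretch holds that motif a single time and holds no match to the E-box, TATA, interferon or STAT motifs spelled out below. It also holds 7 matches, some overlapping, to the loose NF-κB motif and 1 CCACG that overlaps the capitals. A match is a run of letters and says nothing about binding.

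Secreted plasma proteins made up 8 members, with a median fold of 2.17, among them 5 of the 6 members with the highest mean vehicle level in CPM. Saa4, the serum amyloid A made constitutively and carried on high-density lipoprotein, stood at 195, 238 and 287 CPM in vehicle and 441, 529 and 1028 CPM in emodin livers. Its lowest emodin liver was 1.54 times its highest vehicle liver, so no liver came near the other group. Lrg1, a secreted leucine-rich glycoprotein of the acute phase, had 99.7, 130.0 and 140.3 CPM in vehicle livers and 189, 388 and 1351 CPM in emodin livers. The vehicle livers were tight, and the emodin livers spread over a ratio of 7.13, the lowest at 1.35 times the top of the vehicle range (4.57-fold). Serpina3n, an inhibitor of granzyme B and other serine proteases, had 228, 258 and 314 CPM in vehicle and 408, 567 and 1308 CPM in emodin livers (2.70-fold).

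Hp encodes haptoglobin, which captures free hemoglobin, and was the most abundant member per length, at 1149 CPM per kilobase of exon in vehicle livers. Its values were 1676, 1833 and 2068 CPM in vehicle and 2346, 5072 and 11080 CPM in emodin livers, 3.14-fold. Emodin liver 1 came close to the vehicle livers while emodin liver 4 was the highest. Serping1 (C1 inhibitor) was at 1.48-fold, Cpb2 (the fibrinolysis inhibitor TAFI) at 1.39-fold and Clu (clusterin, an extracellular chaperone) at 1.53-fold. For these abundant mRNAs the emodin livers began within 1.06 times the top of the vehicle range. Serpina3m, the neighbour and close paralog of Serpina3n, was at 1.72-fold, and it was the single plasma protein that lost its separation under another scaling. Reads of the Serpina3 paralogs, and of Saa4 and its serum amyloid A relatives, may have been divided in a way that is not stated, so their single values are uncertain.

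The 3 metal-handling members had the largest median fold of any role, 7.16. Mt2 had 5.04, 29.9 and 59.0 CPM in vehicle livers and 83.7, 913, 68.9, 947, 540.1, 217, 295 and 236 CPM in emodin livers 1 to 8. Both groups were widely spread, by ratios of 11.7 and 13.7, and emodin livers 2 and 4 were the highest. The fold of 14.6 is therefore an average over very unequal livers, and the groups were separated by a ratio of only 1.17. Mt1 had 18.8, 67.1 and 121 CPM in vehicle and 127, 310.2 and 1056 CPM in emodin livers (7.16-fold), separated by 1.05. The Mt1 and Mt2 genes lie side by side on chromosome 8 with similar coding sequences, and how reads that match both were counted is not stated. Steap4, a metalloreductase that reduces ferric and cupric ions, had 71.2, 96.2 and 103 CPM in vehicle and 105, 220.0 and 579 CPM in emodin livers (3.04-fold), with the lowest emodin liver within 1.02 times the highest vehicle liver. Steap4 also lost its separation under another scaling. Vehicle liver 1 had the lowest level of Mt1 and Mt2, and was the lowest vehicle liver for 27 members in all (22.3%, against 14.8% of all genes).

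Receptors and signalling proteins accounted for 12 members, with a median fold of 1.77. Map3k6 (ASK2), a stress-activated kinase that acts with ASK1, had 0.733, 2.11 and 3.68 CPM in vehicle livers and 5.14, 6.49 and 8.44 CPM in emodin livers. Vehicle liver 1 was low and vehicle liver 8 high for this gene, and the emodin livers stayed within a ratio of 1.64 of each other. Il1r1, the signalling receptor of interleukin-1, had 39.4, 57.8 and 65.8 CPM in vehicle and 81.6, 126 and 203 CPM in emodin livers (2.38-fold). Il22ra1, a subunit of the interleukin-22 receptor, was far less abundant, at 0.657, 1.63 and 2.17 CPM in vehicle and 2.21, 3.38 and 4.43 CPM in emodin livers, and its groups almost touched. Gfra1, the GDNF co-receptor, was at 114, 152 and 166 CPM in vehicle and 217, 253 and 293 CPM in emodin livers. With a ratio of 1.35 between its highest and lowest emodin liver it was the most even of the 12 best separated members.

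Rhbdf2 (iRhom2, which escorts the protease ADAM17 to the cell surface) was at 3.02-fold with a spread of 4.82 among the emodin livers. Nfkbiz, an IκB-family coactivator of inflammatory genes, had 5.35, 7.86 and 8.93 CPM in vehicle and 9.08, 11.6 and 16.9 CPM in emodin livers. Stap2, an adaptor that binds STAT3, was at 1.49-fold, Ptpn1 (the phosphatase PTP1B, which acts on insulin and leptin signalling) at 1.45-fold, and Nrg4 (the ErbB4 ligand neuregulin 4) at 1.99-fold. The others were Adora1, the adenosine A1 receptor (1.79-fold), Acvr1b, an activin type I receptor (1.47-fold), and Itpr1, the inositol trisphosphate receptor of the endoplasmic reticulum (1.42-fold). Of the 12, 5 (Acvr1b, Il22ra1, Nfkbiz, Ptpn1 and Itpr1) lost their separation under at least 1 of 4 other ways of scaling the libraries.

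Membrane traffic and lysosomal genes formed a group of 24, with a median fold of 1.60 (1.12 to 2.71). After Fndc3b and Tmem41a, the best separated was Arl15, an Arf-like small GTPase, with 7.82, 8.26 and 8.82 CPM in vehicle and 10.9, 16.5 and 29.4 CPM in emodin livers (2.09-fold). The vehicle livers of Arl15 lay within a ratio of 1.13 of each other, the tightest control group among the 12 best separated members. Lyst, the lysosomal trafficking regulator mutated in Chediak-Higashi syndrome, had 16.8, 18.7 and 19.7 CPM in vehicle and 23.1, 26.6 and 34.6 CPM in emodin livers. Tcirg1 and Atp6v0a2, which encode a-subunits of the proton pump that acidifies organelles, were at 2.10-fold and 1.29-fold. Grn, the precursor of the lysosomal granulins, stood at 103, 128 and 143 CPM in vehicle and 152, 242 and 314 CPM in emodin livers (1.85-fold). Tcirg1, Grn, Lyst and Snx10 (2.13-fold), an endosomal sorting nexin, are also expressed by macrophages, whose 12 markers overlapped between the groups as given above. The median sum of those markers was nevertheless higher in the emodin group (385 against 292 CPM). Cd68 averaged 7.45 ± 3.38 CPM in vehicle and 14.2 ± 9.53 CPM in emodin livers, Marco 14.4 ± 20.9 and 29.5 ± 31.9 CPM, and C1qa 28.1 ± 14.1 and 37.9 ± 15.4 CPM (mean ± SD, n = 8). The list did not move as one. Csf1r averaged 35.05 and 31.58 CPM, Adgre1 10.8 and 9.39 CPM, Timd4 7.68 and 7.3 CPM, and Vsig4 22.41 and 22.15 CPM. The part of these markers in the levels of Tcirg1, Grn, Lyst and Snx10 was not tested.

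Smpd1, the lysosomal acid sphingomyelinase, shows the other end of this group. It had 28.5, 31.3 and 32.6 CPM in vehicle and 33.8, 34.4 and 38.8 CPM in emodin livers, a fold of only 1.12, and both groups were tight. Sec24d, a cargo-binding subunit of the COPII coat that carries proteins out of the endoplasmic reticulum, had 42.9, 53.4 and 65.6 CPM in vehicle and 69.7, 76.5 and 101 CPM in emodin livers (1.53-fold). Tmem87b (1.67-fold), Gcc2 (1.41-fold) and Pcsk7 (1.16-fold), a convertase that cleaves secretory precursors, belong to the Golgi, and Ubap1 (1.59-fold) to the ESCRT machinery of endosomes. Asap3, a GTPase-activating protein for Arf proteins, was at 2.29-fold and Arl13b, a small GTPase of the primary cilium, at 1.70-fold. Spring1, needed for the processing of the sterol regulator SREBP, was 1.63-fold with groups that almost touched. The rest were Grina, Tspan4, Tspan31, Slc35e3, Cptp, Heatr5b and Suco, between 1.28-fold and 1.71-fold. Of the 24, 16 kept their separation under all 4 other scalings.

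Transcription and chromatin genes were the largest group, 25 members, and had a lower median fold, 1.41. Mnt, a MAX partner that represses targets of MYC, was the best separated of them. It had 3.51, 5.44 and 5.92 CPM in vehicle livers and 8.16, 9.78 and 12.8 CPM in emodin livers, and apart from vehicle liver 4, which was low, the vehicle livers were tight. Mlx, the partner of MNT and of the glucose-sensing factors ChREBP and MondoA, was also a member, at 23.7, 26.3 and 27.2 CPM in vehicle and 29.6, 34.0 and 39.3 CPM in emodin livers (1.32-fold). Id3, an inhibitor of basic helix-loop-helix factors, had the largest fold of the group, 3.01, with 8.22, 12.1 and 13.9 CPM in vehicle and 14.7, 34.6 and 61.4 CPM in emodin livers. Its separation was narrow and its emodin livers spread over a ratio of 4.18.

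Clock-related members were Cipc, which binds and represses CLOCK (32.2, 35.7 and 42.1 against 45.0, 46.8 and 53.4 CPM), and the cryptochrome Cry2 (22.9, 27.4 and 31.2 against 32.0, 33.1 and 38.2 CPM). The time of day at which the livers were taken is not given for each mouse in the labels used here. Polycomb-related members were Phc1 (1.64-fold) and Epop (2.17-fold), and both subunits of RNA polymerase III in the set, Polr3a (1.47-fold) and Crcp (1.27-fold), were moderately higher. Arnt, the partner of the aryl hydrocarbon receptor and of hypoxia-inducible factors, was at 22.9, 24.7 and 27.3 CPM in vehicle and 27.3, 33.2 and 47.8 CPM in emodin livers so that the groups all but touched. Zfp746 and Zfp777, neighbouring zinc-finger genes on chromosome 6, were at 1.92-fold and 1.65-fold. Tcf25 had 113, 126 and 134 CPM in vehicle and 134, 141 and 147 CPM in emodin livers, a fold of 1.12 within a narrow range in both groups. Zmiz1 stood at 6.36 CPM in vehicle liver 1 and 16.2 CPM in vehicle liver 8 and between 22.1 and 32.2 CPM in the other 6. The emodin livers ran from 32.4 to 45.7 CPM. A further 10 lay between 1.27-fold and 1.79-fold: the remodelling factors Baz2a and Chd1l, the histone demethylase Kdm4b, the DNA-binding factors Nfic, Zbtb7a and Erf, the LIM-domain protein Lmo4, and Jade2, Phf20 and Kctd15. Of the 25, 15 kept their separation under all 4 other scalings. Cipc, Cry2, Arnt, Crcp, Tcf25, Zmiz1, Kdm4b, Erf and Phf20 were among those that did not.

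Metabolic enzymes accounted for 12 members with a median fold of 1.83. Isyna1, the first enzyme of inositol synthesis, had 2.58, 3.39 and 4.24 CPM in vehicle livers and 5.19, 14.1 and 62.1 CPM in emodin livers. The emodin livers covered a ratio of 12.0, the second widest in the set, so the fold of 6.85 describes no typical liver. Treh, the trehalase of brush borders, was of low level, 0.523, 0.770 and 1.34 CPM in vehicle and 1.80, 2.39 and 4.08 CPM in emodin livers (3.03-fold). Nnmt, which methylates nicotinamide, had 45.9, 67.7 and 103 CPM in vehicle and 112, 206 and 252 CPM in emodin livers (2.66-fold). Arg1, the last enzyme of the urea cycle, was the second most abundant member per length (571 CPM per kilobase in vehicle) and had 1178, 1250.5 and 1379 CPM in vehicle and 1456, 1608 and 2215 CPM in emodin livers. Its fold of 1.33 was below that of Hp, at a vehicle level of the same order.

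Odc1, the first enzyme of polyamine synthesis, had 34.6, 40.7 and 45.5 CPM in vehicle livers and 47.2, 49.9, 48.7, 61.5, 46.8, 46.6, 48.5 and 123 CPM in emodin livers 1 to 8. Emodin liver 8 stood far above the rest, emodin liver 4 followed, and the other 6 lay just above the vehicle range. Without that liver the log2 fold change fell from 0.49 to 0.30. Cyp3a13, a cytochrome P450 of the family known for drug oxidation, was the single P450 member, with 151, 169.6 and 211 CPM in vehicle and 240.2, 283 and 401 CPM in emodin livers (1.80-fold), and lost its separation under another scaling. Alpl (alkaline phosphatase, 1.86-fold), Peds1 (the desaturase that makes plasmalogens, 1.60-fold), Fh1 (fumarase, 1.37-fold), Etnk2 (ethanolamine kinase, 1.47-fold), Abhd15 (1.85-fold) and Pgpep1 (1.89-fold) completed the group. Of the 12, 7 kept their separation under all 4 other scalings, and Cyp3a13, Arg1, Fh1, Etnk2 and Odc1 did not.

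Cytoskeletal, junction and GTPase-signalling members numbered 11, with a median fold of 1.72. Ppl, the plakin periplakin, had the largest fold, 2.53, with 8.90, 12.3 and 20.3 CPM in vehicle and 21.04, 31.0 and 56.0 CPM in emodin livers. Plekha7, a component of adherens junctions, was at 1.97-fold and Cntrl, a centrosomal protein, at 1.72-fold. Arhgef19 and Arhgef37, guanine nucleotide exchange factors of small GTPases, were at 1.56-fold and 1.74-fold, Pak4, a kinase downstream of Cdc42, at 1.46-fold, and Llgl1, a polarity protein, at 1.49-fold. Sowahc, Als2cl and Triobp were at 1.92-fold, 1.56-fold and 1.40-fold. Of the 11, 6 kept their separation under all 4 other scalings, and Als2cl, Arhgef37, Triobp, Llgl1 and Pak4 did not.

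Genes of RNA handling, protein quality and DNA maintenance numbered 14, with a median fold of 1.50. The largest fold was that of Lonrf1, a ring-finger protein with a LON domain (2.14, 3.83 and 4.54 against 5.60, 8.52 and 14.2 CPM, 2.49-fold). Hspb8, a small heat shock protein, had 103, 136 and 144 CPM in vehicle and 156, 209.6 and 519.8 CPM in emodin livers, and emodin liver 5 was the highest. Dnajb6, a co-chaperone of HSP70, was at 1.25-fold, Zfand2b, a ubiquitin-binding protein, at 1.31-fold, and Timm10, a chaperone of mitochondrial import, at 1.42-fold. Riok2, a kinase of small-subunit ribosome assembly, was at 1.61-fold, and Mms19, which delivers iron-sulfur clusters to DNA repair enzymes, at 1.31-fold. Akap17b, Prr3, Spout1, Usp49, Ctif, Gnl1 and Stk19 lay between 1.29-fold and 1.83-fold. Separation under all 4 other scalings held for 4 of these 14.

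Members tied to cell death or the cell cycle were Slfn9, Bak1, Ccnf, Dap, Trp53bp2 and Cdip1. Slfn9, a Schlafen-family gene, had 2.96, 3.60 and 4.78 CPM in vehicle livers and 4.80, 7.88 and 37.5 CPM in emodin livers. Its lowest emodin liver nearly equalled its highest vehicle liver, while the highest was 7.82 times the lowest. Bak1, a pore-forming protein of mitochondrial apoptosis, had 7.84, 10.7 and 13.8 CPM in vehicle and 14.0, 16.4 and 22.8 CPM in emodin livers (1.59-fold), and Trp53bp2 (ASPP2), a p53-binding protein, was at 1.33-fold. Cdip1 marks the very edge of the rule, with a highest vehicle liver at 123.30 CPM and a lowest emodin liver at 123.36 CPM. Ccnf (cyclin F), Dap and Cdip1 were at 1.49-fold, 1.45-fold and 1.19-fold. Of these 6, 2 kept their separation under all 4 other scalings, and Ccnf, Trp53bp2, Slfn9 and Cdip1 did not. Outside the named roles, Apol9a, an apolipoprotein L gene known as interferon-inducible, had 35.1, 42.6 and 54.4 CPM in vehicle and 59.0, 118 and 228 CPM in emodin livers (3.03-fold). Gm7694, Clca3a1, Slc10a3 and Tmem176b were at 2.31-fold, 2.19-fold, 1.74-fold and 1.69-fold. Slc10a3 lost its separation under another scaling.

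**Figure D3:**
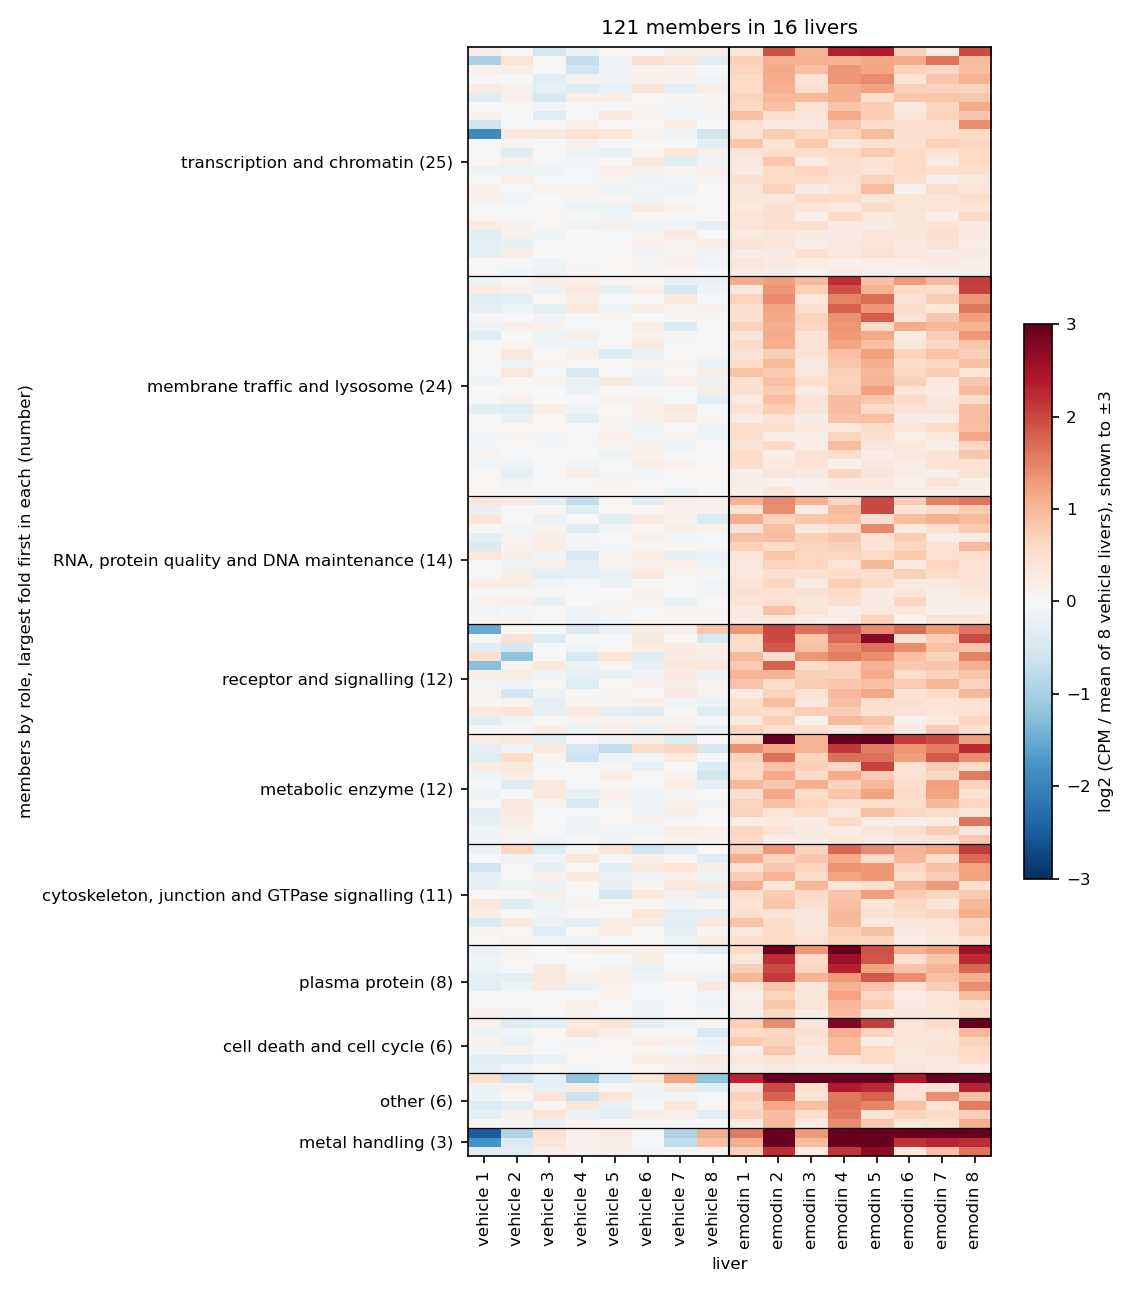
Log2 ratio of each member's CPM in each liver to the mean of its 8 vehicle livers, for 121 members (rows, grouped by role with the largest fold first) in 8 vehicle and 8 emodin livers (columns); red is higher and blue lower, and the colour scale ends at 3 in each direction. The emodin columns are red throughout, palest over the set in emodin 1, 3 and 6, and the deepest red lies in the metal-handling rows and the first rows of the other groups.

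The rule fixes that each emodin liver lies above the vehicle livers, but not which emodin liver is high. The median member stood at 0.970 to 1.05 times its vehicle mean in the vehicle livers. In emodin livers 1 to 8 it stood at 1.41, 1.73, 1.38, 1.82, 1.72, 1.37, 1.45 and 1.76 times the vehicle mean, while the median of all genes lay between 0.936 and 1.17 times. That each of these values is above the vehicle livers follows from the rule, and only their order among the emodin livers does not. For 79.3% of the members, emodin liver 2 was among the 4 highest emodin livers, against 51.8% of all genes, and for emodin liver 5 the shares were 71.1% and 52.3%. Emodin liver 4 was among the 4 highest for 74.4% of members and 71.3% of all genes, and emodin liver 8 for 66.1% and 71%. Emodin livers 1 and 3 were among the 4 highest for 28.9% and 19.8% of members, against 50.8% and 33.5% of all genes. The members were measured in the same libraries, so these shares are a description with no test. The highest level of a member was found in emodin liver 4 for 37 members (30.6%, against 21.5% of all genes) and in emodin liver 5 for 31 (25.6%, against 11.8%). Emodin liver 8 held it for 19 members (15.7%), below its 34.6% of all genes, and emodin liver 6 for 3 (2.48%, against 4.09%).

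**Figure D4:**
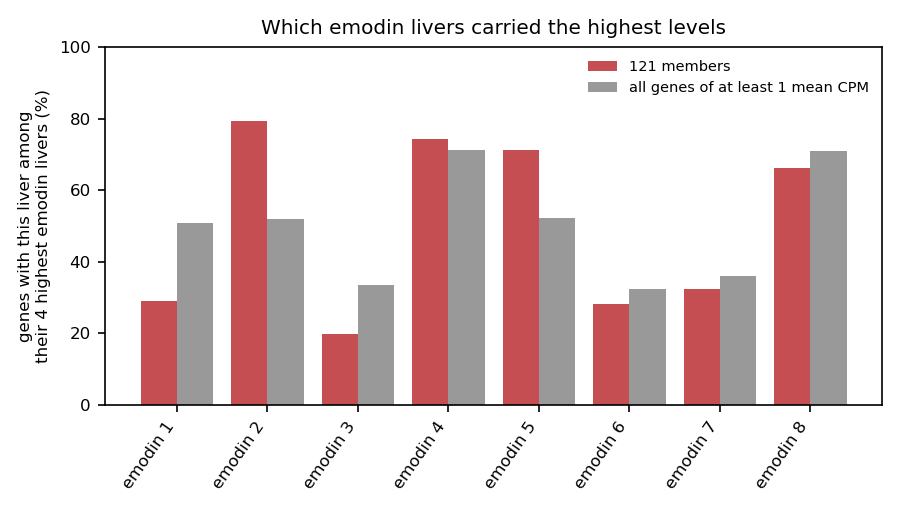
Share of genes (%, linear axis from 0) that have the given emodin liver among their 4 highest emodin livers, for the 121 members (red) and all genes of at least 1 mean CPM (grey). Emodin livers 2 and 5 hold a larger share of members than of all genes, and emodin livers 1 and 3 a smaller share.

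The members differed widely in how evenly the emodin livers carried them. The ratio of the highest to the lowest emodin liver had a median of 1.65 (1.09 to 13.7), beside 1.78 for all genes, and the same ratio among vehicle livers had a median of 1.43, beside 1.48. It was under 1.5 in 39 members and over 3 in 15. Tcf25 (1.09), Smpd1 (1.15) and Cdip1 (1.15) were the most even, and Mt2 (13.7), Isyna1 (12.0) and Mt1 (8.32) the least. The emodin spread exceeded the vehicle spread in 85 members (70.2%), against 74.8% of all genes. Among the 13 members at 3-fold or more, Map3k6 (1.64) and Treh (2.26) had a ratio under 3, and the other 11 were all above it.

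**Figure D5:**
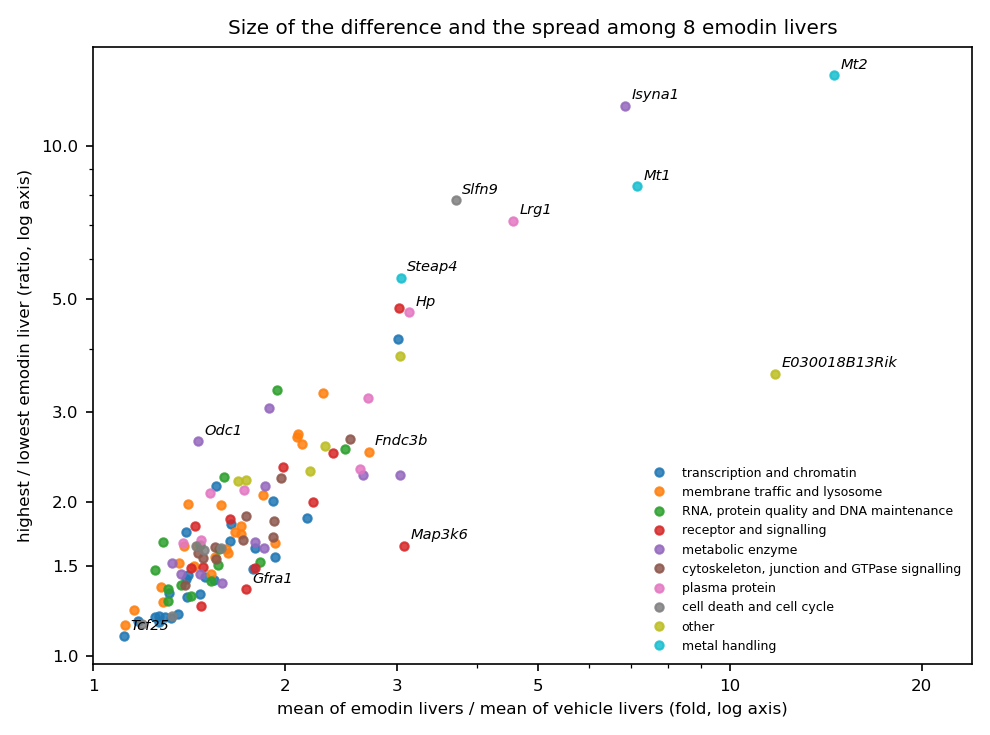
Fold of each member (mean of emodin over mean of vehicle livers, log axis) against the ratio of its highest to its lowest emodin liver (log axis), 1 point per member, coloured by role. Most points lie below 2 on both axes; Mt2, Isyna1, Mt1, Slfn9 and Lrg1 combine large folds with wide spreads, while E030018B13Rik and Map3k6 have large folds at narrower spreads.

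Lists of genes from known pathways set the members beside their pathways. Of 32 tested genes of the interleukin-6 and STAT3 response, 20 were called higher and 0 lower (median log2 fold change 0.90, against 0.01 over all tested entries), and Hp, Il1r1 and Steap4 were members. Of 24 tested NF-κB regulators and targets, 7 were called higher and 0 lower (median 0.40), and Nfkbiz was a member. Bcl3, also on that list and called higher, met the comparison with a wider separation than Nfkbiz (1.15 against 1.02) and is set aside by name. Of 26 interferon-induced genes, 19 were called higher and 0 lower (median 2.25), and no member stands in this list. The metal-handling list had 6 of 20 called higher and 2 lower, with Mt1, Mt2 and Steap4 as members and Scara5 (separation 4.83) among those called but set aside by name. These lists overlap in part, and Steap4 stands in 2 of them.

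Lists for the secretory pathway gave fewer calls. Of 42 genes of COPI, COPII and Golgi traffic, 4 were called higher and 0 lower (median 0.14), with Sec24d as a member. Of 38 genes of protein translocation and N-glycosylation, 3 were called higher and 0 lower (median 0.11), and of 27 endoplasmic reticulum chaperones and degradation factors 1 was higher and 1 lower (median 0.07), with no member in either list. Ribosome biogenesis and MYC targets had 9 of 27 called higher and 0 lower (median 0.30), with Odc1 as a member. The urea cycle list had 3 of 17 higher and 0 lower, with Arg1 as a member and Nags (separation 1.04) set aside by name, and the list of AhR, CAR and PXR targets 3 of 21 higher and 0 lower, with Cyp3a13 as a member. No member stood in the lists of actin regulators (3 higher and 1 lower of 36), glycolysis and hypoxia (3 and 2 of 30), amino acid transport and ATF4 (5 and 2 of 27), proteasome subunits (3 and 0 of 35), glucocorticoid targets (2 and 1 of 16) or NRF2 targets (2 and 1 of 19). Of 24 genes of DNA replication and cell division, 0 were called in either direction by edgeR, 5 were higher and 0 lower at an unadjusted p under 0.05, DESeq2 called 3 higher, and no member is among them. Over all tested entries 7.7% were called higher and 5.47% lower. In the lists with 0 called lower, between 0 and 3 genes were lower at an unadjusted p under 0.05 in the edgeR fit, and DESeq2 called 0 or 1 lower.

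Promoter windows were matched by symbol for 95 members (124 windows, some genes having several starts). In the 250 bases before the start, on both strands, the core of the interferon-stimulated response element (ISRE: TTTC, any 2 bases, then TTTC again) was found in 8.06% of member windows, against 2.98% of all 32851 windows and 2.76% of the 11969 windows of genes of at least 1 mean CPM. The 10 windows belong to Apol9a, Clca3a1, Crybg1, Gfra1, Saa4, Slfn9, Snx10, Tcirg1 and Usp49. Windows of Apol9a overlap and hold the same matches, so this site is counted more than once in the share. Those of 5 genes are printed, with the motif (either strand) in capitals, since they include Crybg1, Saa4 and Gfra1, which are among the best separated members. All are on the minus strand of GRCm38.p6 and written 5′ to 3′: Apol9a at chr15:77411105-77411164, Crybg1 at chr10:44004869-44004928 (1 of its starts), Gfra1 at chr19:58455517-58455576, Saa4 at chr7:46732731-46732790 and Slfn9 at chr11:82991841-82991900.
Apol9a: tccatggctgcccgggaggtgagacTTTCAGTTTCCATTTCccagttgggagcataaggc
Crybg1: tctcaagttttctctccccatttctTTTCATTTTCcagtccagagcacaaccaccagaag
Gfra1: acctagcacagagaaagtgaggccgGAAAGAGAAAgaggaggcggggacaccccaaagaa
Saa4: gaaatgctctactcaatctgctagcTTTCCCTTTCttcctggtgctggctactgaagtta
Slfn9: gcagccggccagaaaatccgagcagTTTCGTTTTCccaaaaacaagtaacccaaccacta
In Apol9a 2 overlapping matches form a single run, and in Gfra1 the capitals are the reverse complement of the motif. The Saa4 and Gfra1 matches lie farther from the start (162 and 153 bases) than those of Slfn9, Crybg1 and Apol9a (45, 57 and 59 bases). The Crybg1 start printed is internal to the gene. Its window at the 5′ end of the gene (chr10:44148779-44149078) held no ISRE match.

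The E-box CACGTG, read by MYC, MAX, MNT and MLX among other factors, was found in 8.87% of member windows, against 6.02% of all windows and 8.26% of windows of genes of at least 1 mean CPM. Its member windows include those of Mnt and Mlx themselves and of Cipc, which are printed for that reason (plus strand, Mnt at chr11:74830774-74830833, Mlx at chr11:101087223-101087282 and Cipc at chr12:86947283-86947342).
Mnt: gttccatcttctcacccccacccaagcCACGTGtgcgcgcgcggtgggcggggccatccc
Mlx: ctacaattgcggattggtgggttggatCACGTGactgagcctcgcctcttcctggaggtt
Cipc: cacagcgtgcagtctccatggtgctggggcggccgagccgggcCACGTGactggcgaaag
TTCNNNGAA, the core of STAT sites, was found in 3.23% of member windows (Lyst, Nfic, Phc1 and Steap4), against 7.02% of all and 6.02% of windows of genes of at least 1 mean CPM. Steap4 is printed as the member of the STAT3 list with a match (plus strand, chr5:7960330-7960389).
Steap4: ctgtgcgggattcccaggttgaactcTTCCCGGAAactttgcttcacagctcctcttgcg
Among the plasma protein members, the matched windows of Saa4, Lrg1 and Serpina3n held no such match, which says only that these letters are not in these windows.

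The other motifs searched gave the following shares, with no test. The hypoxia core ACGTG, which lies within every CACGTG, stood in 27.4% of member windows (16.6% of all, 21.5% of those genes), the NRF2 core TGACNNNGC in 16.1% (10.2%, 11.6%), the AP-1 motif TGANTCA in 6.45% (6.75%, 4.7%), the CRE TGACGTCA in 2.42% (1.55%, 2.38%) and the C/EBP motif TTGCNNCAA in 0.806% (1.74%, 1.25%). The loose NF-κB motif (GGG, any 5 bases, then CC) stood in 69.4% (45.8%, 60.4%), the CCACG of unfolded protein elements in 44.4% (28.3%, 40.5%) and the ETS core CCGGAAG in 9.68% (6.91%, 13.2%). TATAAA was found in 3.23% of member windows, those of Alpl, Arl15, Steap4 and Zfp746, against 12.4% of all and 6.98% of those genes. The member windows were rich in CpG, with a median of 18 CpG and 62.8% GC, against 15 and 59.6% for genes of at least 1 mean CPM and 6 and 52.4% for all windows. The part of this composition in the motif shares was not tested.

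All 121 members are protein-coding in GENCODE M21, as are 99.8% of all genes in the comparison, and their median exon length was 4309 bases, against 4474.5. Of the members, 4 pairs are neighbours in the genome: Mt2 and Mt1 on chromosome 8, Serpina3m and Serpina3n on chromosome 12, Zfp777 and Zfp746 on chromosome 6, and Prr3 and Gnl1 on chromosome 17. Prr3 and Gnl1 lie on opposite strands and share 386 bases of exon. Of the 3 genes just outside the rule, 2 are also neighbours of members, Abcf1 beside Prr3 and Plin5 beside Lrg1. The exons of 25 members overlap those of another gene of the table, and in 12 by at least 10% of the member's exons: Usp49 (51.2%, same strand as Gm20517), Tspan31 (29.2%), Peds1 (21.3%, same strand as Gm20431), Adora1 (20.1%), Mlx (19.3%), Bak1 (18.2%), Tspan4 (13.4%), Slc10a3 (12.8%, same strand as Ubl4a), Spout1 (12.6%), Gnl1 (12.5%), Abhd15 (10.8%) and Prr3 (10.2%). The labels do not say whether strand was used in counting, so the values of these members are uncertain. Apol9a and Slfn9 have close paralogs, with the same limit. Peds1 also shares 312 exon bases (9.56%, opposite strand) with Cebpb, which had a mean of 78.4 CPM and a fold of 1.415. Gm20431 had a mean of only 0.0684 CPM. The part of Cebpb reads in the Peds1 values was not tested.

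Just inside the rule were Cdip1, Spring1 and Arnt, whose ratios of the lowest emodin to the highest vehicle liver all round to 1.00. Just outside were Abcf1 (0.999), Tmprss2 (0.999) and Plin5 (0.998), chosen by their ratio alone. At the level threshold, E030018B13Rik (1.48 CPM) and Treh (1.76 CPM) were the lowest members, and Klhl29 (0.431 CPM) and Phlda2 (0.137 CPM) were separated but too low. A change of scaling moves genes over this edge: with TMM factors 124 genes met the rule, of which 84 are members and 40 are not, and DESeq2 size factors gave the same numbers. Without the 50 most abundant entries in the library total, 92 genes met it, 85 of them members. Under all 4 other scalings 71 members kept their separation, including Fndc3b, Tmem41a, Crybg1 and the other 10 genes of the plot of levels by liver, and Cdip1 kept it under none.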

How the data were processed

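RNA of 16 mouse livers (8 vehicle, 8 emodin) was measured by RNA sequencing. The genome build was mm10, and the tools named are HTSeq 0.6.1, Cufflinks 2.2.1, HISAT2, cutadapt 1.9.1 and SAMtools 0.1.19, per the submitters' processing notes; their roles, the annotation and the use of strand are not given in the sources used here. The values the authors deposited are estimated counts per gene, read as such from the values: 0 were not whole, totals differed between livers, and 632 to 751 entries per liver stood at 2 against 161 to 207 at 1. Groups were taken from the sample labels. Of the 27446 entries, 21833 had Ensembl identifiers (21779 found in GENCODE M21), and the 5613 others took 4.03% to 4.73% of the counts and were left out of the rule.

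Levels are CPM of the whole library total, without scaling factors, and the rule was applied to them as given in the results. The background came from edgeR 4.0.16 in R 4.3.3 (filterByExpr, TMM factors of 0.929 to 1.16, robust quasi-likelihood F test, Benjamini-Hochberg adjustment over 14308 entries, called at 0.05), with DESeq2 1.42.0 and limma-voom 3.58.1 with array weights as alternatives. The values are whole, so rounding changed nothing. The test code was tested on simulated data. The members and lists were chosen with earlier results of these data known. Named genes were Fndc3b, Crybg1 and Tmem41a, the 12 best separated members, the 10 with the largest log2 fold change, the 6 with the highest vehicle level, members of the lists, and those at the edges of the rule and of the spread; roles and all further names were chosen after values were seen. Promoter windows are from RefSeq (GRCm38.p6); 26 members had no window and their sequences were not used here. Intervals of counting error were not computed, since the spread between livers was used throughout. The values of 1 member are not reported here.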

Additional observations from a re-analysis of the deposited data

Results flagged for a closer look

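In each group of 8 livers, the highest and the lowest level of every member was compared with the nearest other liver by Dixon's criterion. It singled out 17 of 242 groups (7.02%), while chance flags about 1 in 20 groups of values that were not selected. That rate does not apply here, because the rule chose the members on these values. Of the 17, 14 were high emodin livers and 3 were low vehicle livers. The rule tends to remove genes with a low emodin liver or a high vehicle liver, so nothing is read from that split.

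Emodin liver 8 stood alone at the top for Odc1 (123 CPM, the next liver at 61.5), Chd1l (25.1, next 16.8), Gcc2 (43.1, next 30.8), Lyst (34.6, next 27.3) and Plekha7 (14.5, next 9.69). Emodin liver 5 did so for Pgpep1 (137 CPM, next 60.2), Riok2 (67.8, next 46.8), Dnajb6 (106, next 87.5) and Cntrl (39.0, next 29.4). Emodin liver 2 did so for Nrg4 (56.4 CPM, next 34.9), Smpd1 (38.8, next 34.6) and Stk19 (9.19, next 6.69). Emodin liver 4 was alone for Slc10a3 (6.25 CPM, next 4.06) and emodin liver 7 for Epop (4.96 CPM, next 3.61). For these members the mean of the emodin group rests in part on 1 liver, while their separation from the vehicle livers does not.

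At the bottom of the vehicle group, vehicle liver 1 stood alone for Chd1l (6.36 CPM, the next liver at 9.23), vehicle liver 4 for Mnt (3.51, next 4.85) and vehicle liver 8 for Nfic (46.6, next 55.1).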

How the results depend on the processing

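Requiring the lowest emodin liver to reach 1.1 times the highest vehicle liver left 38 members. Other library totals and level minimums gave 92 to 124, and leaving out each liver in turn gave 127 to 172, the most without emodin liver 7. With a liver left out the comparison is easier to meet, so that this number rose follows from the rule. With 1 liver left out, entries called higher ranged from 709 (without emodin liver 4) to 1333, entries called lower from 521 (without emodin liver 2) to 903, and members called higher from 112 to 118. Over the other settings, entries called higher ranged from 628 to 1402, lower from 570 to 1071, and members called higher from 113 to 120. The replicate block called 628 entries higher and 635 lower and 113 members higher. The titles number the livers 1 to 8 in both groups, but same-numbered livers correlated at -0.149 to 0.245, 1 of 8 over 0.1, and 2 of 8 matched their own number best, so the numbers were not taken as pairs. Of 2662 log2 fold changes of single members under these settings, 0 reversed, 19 lost a call and 20 gained one. The losses were Phf20 in 12 settings and Odc1 in 7. Because the rule chose the members on these same livers, a reversal was nearly excluded beforehand. Nothing is read from these counts or from the numbers of members called higher. With array weights the log2 fold changes of Apol9a, Hp, Slfn9 and Steap4 fell to 0.94, 1.02, 0.94 and 0.95, from 1.53, 1.58, 1.78 and 1.55, and that of Odc1 fell from 0.49 to 0.30 without emodin liver 8. The cause of these shifts was not tested. Depth limits the members near 1 CPM most, and intervals for them rest on 16 libraries.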
